A study of Arabidopsis thaliana with 6 samples.

Results

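The berberine bridge enzyme-like genes examined here were 10 loci of chromosome 1 of Arabidopsis thaliana. They lie in 2 tandem groups, 5 from AT1G26380 to AT1G26420 and 5 from AT1G30700 to AT1G30760. AT1G30740, a family locus within the second stretch, was not among the 10. The 10 loci were chosen by family and position after AT1G30760 was known, from earlier results of these same arrays, to be higher with the compound. The compound-minus-DMSO values below are therefore a description and carry no p of their own. Of the 10 loci, 8 had a probe set that reads 1 gene. AT1G30720 and AT1G30730 shared a single probe set and could be read only as a sum of both. The platform annotation gave single-gene probe sets for 13286 loci in all.

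Whole seedlings of ecotype Columbia 0 were grown for 7 days in multi-well plates. The compound group then received 5 µM of a synthetic amide, a dichlorophenoxy propanamide whose nitrogen carries a phenyl ring with isobutyrylamino and methoxy groups, dissolved in dimethyl sulfoxide (DMSO), for 24 h. The other group received the same amount of DMSO alone. Each group held 3 biological replicates, made by combining the plants of 24 wells (5 seeds each), and each replicate was hybridised to 1 Affymetrix ATH1 array. The labels do not say what the compound and DMSO arrays of a replicate number shared.

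Berberine bridge enzyme-like proteins are flavin-dependent oxidoreductases, named after the poppy enzyme that closes the berberine bridge in alkaloid synthesis. Plants that make no such alkaloids also carry many of these genes. In Arabidopsis, characterised members oxidise monolignols, the building blocks of lignin, or wall-derived oligosaccharides, or take part in the synthesis of indole defence compounds. AT1G26380, also called FOX1, acts in the synthesis of an indole carbonyl nitrile after pathogen attack, and AT1G30760 has been shown to oxidise monolignols in vitro. Specific roles of the other members of both groups are not given here.

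AT1G30760 was higher with the compound in every replicate, and none of the other 7 singly measured loci passed the test. Values are log2 RMA expression values, in which 1 unit is a doubling. AT1G30760 stood at 6.83, 6.65 and 6.43 on the compound arrays of replicates 1, 2 and 3, against 5.16, 5.14 and 4.80 on the DMSO arrays. All compound arrays lay above all DMSO arrays, and in both groups replicate 3 was the lowest. The group means were 6.63 ± 0.20 with the compound and 5.03 ± 0.20 with DMSO (SD, n = 3 each). The log2 difference was 1.60, or 3.03-fold, with an SE of 0.15, and of 0.08 with the replicate number as a block. Within replicate number the differences were 1.67, 1.51 and 1.63, or 3.17-fold, 2.85-fold and 3.09-fold.

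Read from the fit over all 22746 probe sets (limma, Benjamini-Hochberg adjusted p below 0.05), 1 of the 8 singly measured loci was called up and 0 were called down. The share of all probe sets called in either direction was 0.343%. With the replicate number as a block the count was again 1 up and 0 down, beside 3.8% of all probe sets. AT1G30760 was the locus called in both fits. It was also the 1 locus of the 8 whose groups did not overlap, where 9.74% of all probe sets had groups that did not overlap. Because the choice of members used this contrast, these counts describe the loci only. In the fit without the block the call was lost when any 1 compound array, DMSO replicate 2 or DMSO replicate 3 was left out. The log2 difference of AT1G30760 in the fits without 1 array ran from 1.49 to 1.71.

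**Figure D1:**
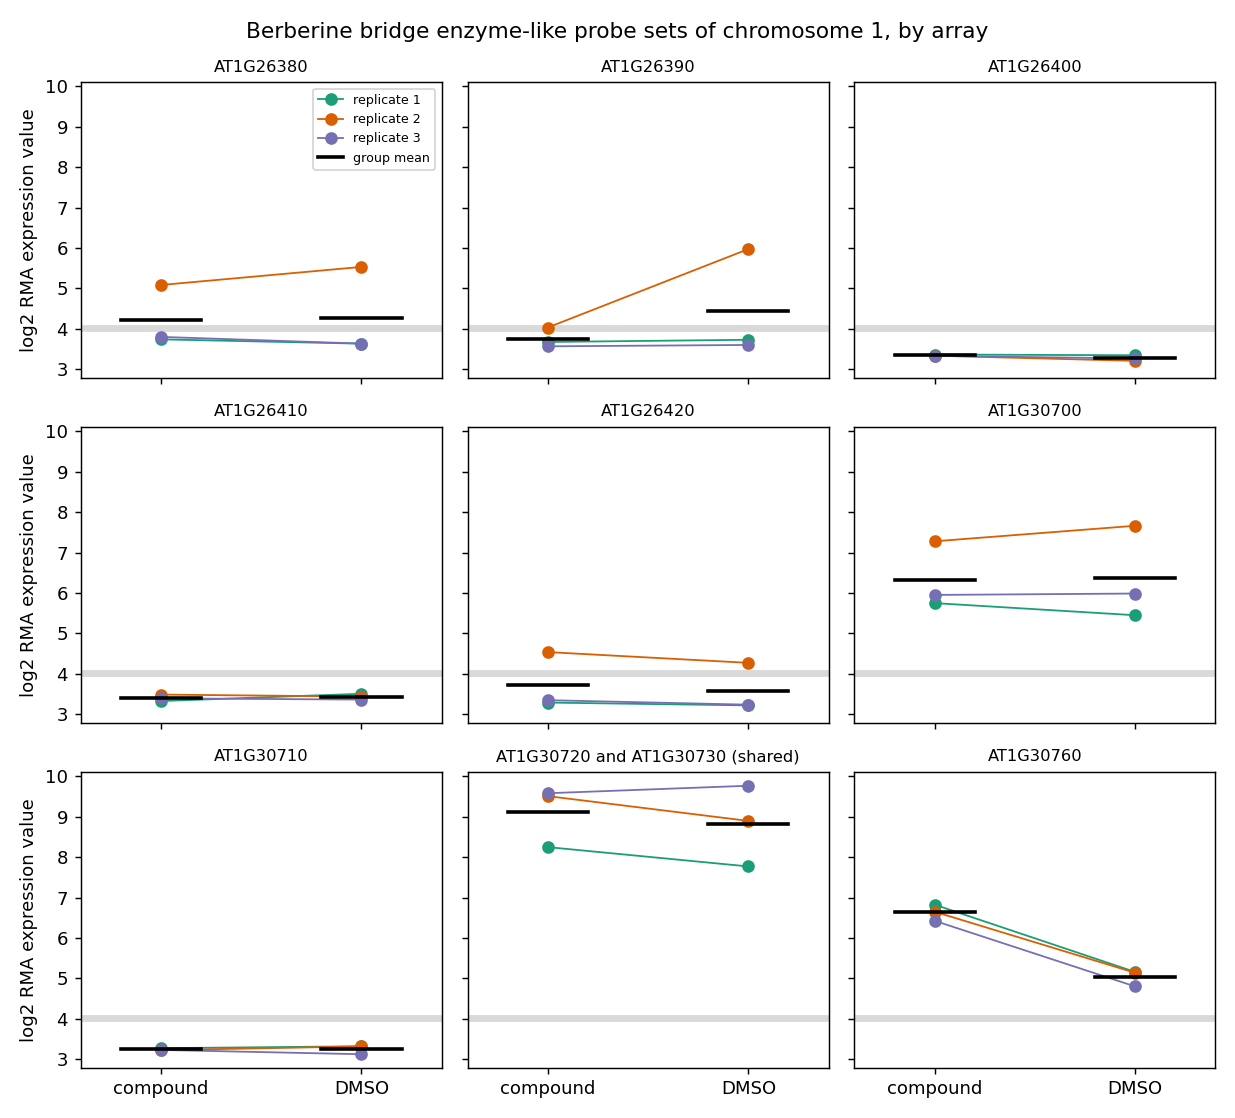
Log2 RMA expression values (vertical axis) of the 8 singly measured loci and of the probe set shared by AT1G30720 and AT1G30730, with compound arrays left and DMSO arrays right in each panel. Coloured points are arrays joined within replicate number, black bars are group means, and the grey band spans the lower quartiles of the 6 arrays (3.95 to 4.06). AT1G30760 is the panel in which all 3 compound points lie above all 3 DMSO points.

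In the same tandem group, AT1G30700 took very different values between replicates and similar ones between treatments. Its compound arrays read 5.75, 7.28 and 5.95 in replicates 1, 2 and 3, against 5.45, 7.67 and 5.99 on the DMSO arrays. Replicate 2 was the highest in both groups, and the range of the compound arrays lay within that of the DMSO arrays. The log2 difference was -0.04, with a 95% interval of -1.60 to 1.52 without the block and -0.34 to 0.26 with it. For AT1G30760 the 95% interval was 1.245 to 1.96 without the block, overlapping that of AT1G30700. With the block it was 1.42 to 1.78, which did not overlap that of AT1G30700. The difference between these loci was not tested.

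AT1G30710, the next locus, read 3.27, 3.22 and 3.23 with the compound and 3.32, 3.32 and 3.12 with DMSO. All 6 values were below the lower quartile of their arrays. Such values cannot be separated from background, so a transcript at a low level, or a change in it, could go unseen. The measured log2 difference was -0.01 (95% interval -0.23 to 0.21).

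The probe set shared by AT1G30720 and AT1G30730 read 8.25, 9.51 and 9.58 with the compound and 7.77, 8.90 and 9.77 with DMSO. Replicate 1 was the lowest in both groups, and the groups overlapped. The differences within replicate number were 0.48, 0.61 and -0.19, so 2 of 3 pairs were higher with the compound. The mean log2 difference was 0.30, with a 95% interval of -1.07 to 1.68 without the block and -0.06 to 0.66 with it. The values of the separate genes cannot be recovered from this probe set.

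In the RefSeq gene order, AT1G30740, of the same family, AT1G30750, AT1G30755 and AT1G30757 lie between AT1G30730 and AT1G30760. AT1G30740 read 3.45, 3.39 and 3.52 with the compound and 3.45, 3.32 and 3.54 with DMSO, all below the lower quartile. AT1G30750 went the other way from AT1G30760. It stood at 5.19, 5.33 and 4.85 with the compound and 6.74, 7.15 and 6.80 with DMSO, a log2 difference of -1.77 (SE 0.17). The compound arrays all lay below the DMSO arrays for AT1G30750 and all above them for AT1G30760, in each of the 3 replicate pairs.

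In the other tandem group, AT1G26380 (FOX1) was high on both arrays of replicate 2 and low on the other 4. It read 3.74, 5.09 and 3.80 on the compound arrays of replicates 1, 2 and 3, against 3.63, 5.53 and 3.63 on the DMSO arrays. The 4 arrays of replicates 1 and 3 lay below the lower quartile and cannot be separated from background. The lower of the replicate 2 arrays was 1.28 log2 units above the highest of those 4. Between treatments the log2 difference was -0.06, with a 95% interval of -1.52 to 1.40 without the block and -0.36 to 0.24 with it.

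AT1G26420, at the far end of the group, had the same order of replicates. Its compound arrays read 3.29, 4.54 and 3.35, against 3.22, 4.27 and 3.24 with DMSO. Both replicate 2 arrays stood above the other 4, which were again below the lower quartile. The difference between compound and DMSO was 0.07, 0.27 and 0.11 within replicates 1, 2 and 3, small beside the distance between replicates.

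AT1G26390 differed from these neighbours in replicate 2. It read 3.68, 4.03 and 3.57 with the compound, against 3.73, 5.97 and 3.60 with DMSO. A single array, DMSO replicate 2, was clearly above the rest, and compound replicate 2 was only 0.30 log2 units above the highest of the arrays of replicates 1 and 3. The differences within replicate number were -0.05, -1.94 and -0.03. The mean log2 difference of -0.68 (SE 0.62) did not pass the test in either fit, and without DMSO replicate 2 it was 0.09.

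The remaining members of this group, AT1G26400 and AT1G26410, gave low and flat readings. AT1G26400 lay between 3.33 and 3.36 with the compound and between 3.21 and 3.35 with DMSO. AT1G26410 lay between 3.33 and 3.49 with the compound and between 3.36 and 3.51 with DMSO. All 12 values were below the lower quartile of their arrays, so with AT1G30710 there were 3 of 8 loci for which no array gave a reading that can be told from background.

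**Figure D2:**
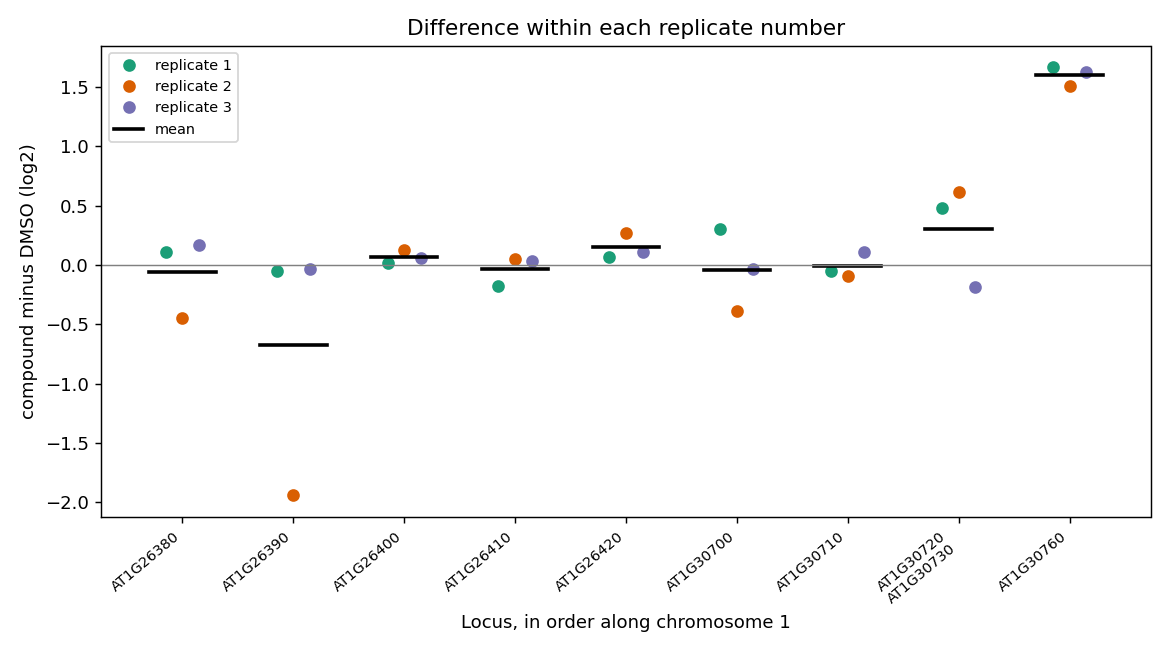
Compound minus DMSO on the log2 scale (vertical axis) within replicates 1, 2 and 3 (coloured points) and their mean (black bar), with loci in the order of their numbers along chromosome 1. The points of AT1G30760 lie between 1.51 and 1.67, and those of AT1G26390 include 1 value of -1.94 in replicate 2 beside 2 values near 0.

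Neighbouring loci were compared by their treatment differences, since levels read by different probe sets have no common scale. The difference of AT1G30760 exceeded that of AT1G30710, the preceding member with a probe set of its own, by 1.61 ± 0.10 log2 units (SD over 3 replicate pairs). Because AT1G30710 was not separable from background on any array, this value is in effect the difference of AT1G30760 itself. The difference of AT1G26390 was below that of AT1G26380 by 0.16, 1.49 and 0.20 log2 units in replicates 1, 2 and 3. In replicates 1 and 3 both loci were below the lower quartile, so those values compare readings not separable from background. The difference of AT1G26400 exceeded that of AT1G26390 by 0.07, 2.07 and 0.10, and without DMSO replicate 2 the mean was -0.06. It was -0.10 ± 0.09 for AT1G26410 against AT1G26400 and 0.18 ± 0.09 for AT1G26420 against AT1G26410. For AT1G30710 against AT1G30700 the same quantity was 0.03 ± 0.33. AT1G26400, AT1G26410 and AT1G30710 were below the lower quartile on every array. Each comparison with any of these loci therefore includes readings not separable from background. An exact permutation test over arrays cannot go below 0.1 with 3 arrays against 3, so no neighbour pair could pass and these values are descriptions.

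The variation of each locus over the 6 arrays was divided into a part between treatments, a part between replicate numbers and a rest. For AT1G30760, 96.0% lay between treatments and 3.86% between replicate numbers. For AT1G26380, AT1G26420 and AT1G30700 the part between replicate numbers was 96.6%, 97.5% and 97.1%. Over all probe sets the median was 9.84% between treatments and 62.6% between replicate numbers, so a large replicate part was usual on these arrays. The size of the spread in these 3 loci was less usual. The within-group SD, pooled over both groups, was at the 99.3rd percentile of all probe sets for AT1G26380, at the 97.8th for AT1G26420 and at the 99.5th for AT1G30700, beside the 64.5th for AT1G30760. It was as high for AT1G26390 (99.4th) and the probe set shared by AT1G30720 and AT1G30730 (99.2nd). AT1G26400, AT1G26410 and AT1G30710 lay at or below the 15.5th. In other measured family loci it ran from the 10.2nd (AT5G44360) to the 98.3rd (AT4G20830).

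Both replicate 2 arrays stood above the other 4 in 4 of the 8 loci, namely AT1G26380, AT1G26390, AT1G26420 and AT1G30700. The share of all probe sets with that order was 12.2%. In AT1G26380 and AT1G30700 the gap was at least 1 log2 unit, which was so in 63 (0.277%) of all probe sets. This order of arrays was picked out after the values were seen and was not tested.

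**Figure D3:**
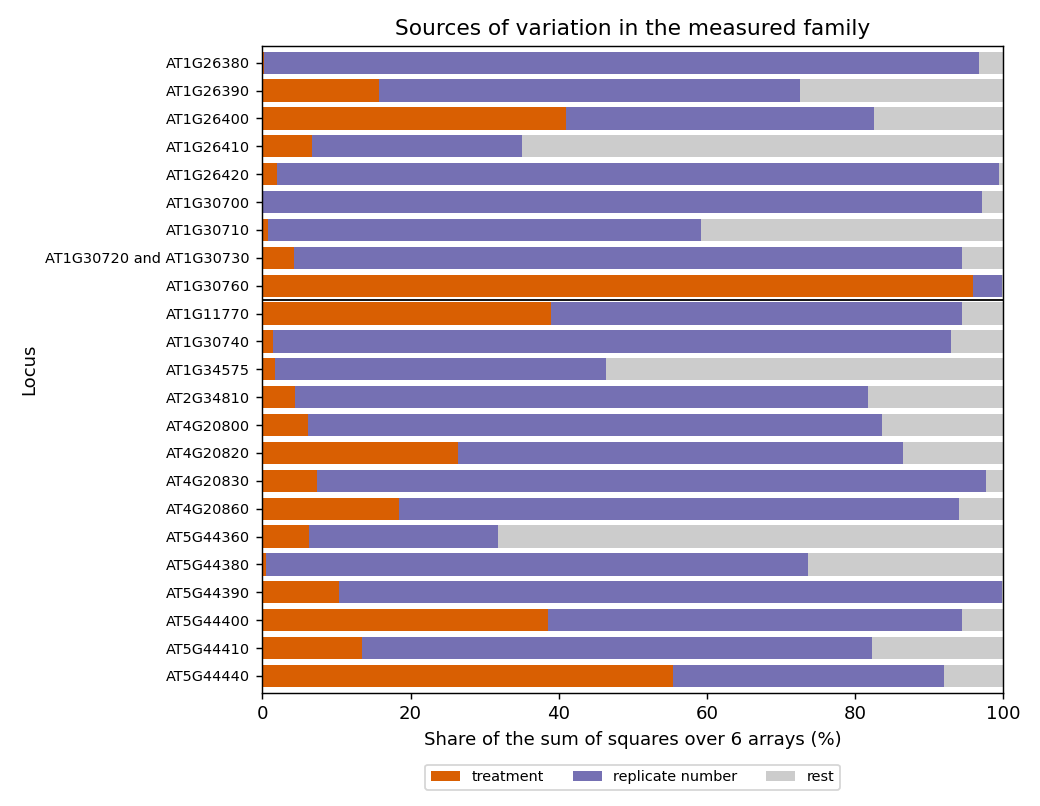
Share of the sum of squares over the 6 arrays (horizontal axis, %) that lay between treatments, between replicate numbers and in the rest, for each measured family locus. The chosen loci of both tandem groups are above the line and the other measured family loci, AT1G30740 among them, below it. AT1G30760 is the bar with 96.0% between treatments, and most other bars are filled largely by the replicate number.

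Of 17 further family loci outside the 10, 14 had a single-gene probe set. None was called by limma without the block, where 0.343% of all probe sets were called. An unadjusted p below 0.05 was found for 1 of the 14, beside 5.36% of all probe sets. With the block 1 was called up and 1 down, beside 3.8% of all probe sets. The median log2 difference of the 14 was 0.02, against 0.01 over all probe sets and -0.02 over the 8 chosen loci that were singly measured. For 5 of the 14 all arrays were below the lower quartile.

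AT5G44400 was the further locus called up with the block. It read 6.11, 6.72 and 5.63 with the compound, against 5.76, 5.75 and 4.64 with DMSO, a log2 difference of 0.77 (SE 0.39 without the block, 0.13 with it). The groups overlapped, while each compound array was above the DMSO array of its own number. AT5G44440 was the locus called down with the block, at 4.07, 3.79 and 3.95 with the compound and 4.85, 4.08 and 4.46 with DMSO. Its log2 difference was -0.53 (SE 0.20 without the block, 0.11 with it). On compound replicates 2 and 3 it lay below the lower quartile and cannot be separated from background.

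Of the family genes for oligosaccharide oxidases, AT4G20830 and AT4G20860 lay above the upper quartile of every array, while AT1G11770, an oligogalacturonide oxidase gene, read 3.24 to 3.40 with the compound and 3.12 to 3.26 with DMSO, below the lower quartiles. AT4G20830, which also encodes an oligogalacturonide oxidase, stood at 8.53, 9.95 and 9.31 with the compound and 8.11, 9.46 and 9.23 with DMSO. AT4G20860, which encodes a cellodextrin oxidase, stood at 9.26, 9.99 and 9.85 with the compound and 8.78, 9.48 and 9.78 with DMSO. For both, the compound array was higher in all 3 replicate pairs, by 0.43, 0.49 and 0.07 for AT4G20830 and by 0.48, 0.51 and 0.07 for AT4G20860. The test was not passed with or without the block.

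Of the 14 further loci, 2 had both replicate 2 arrays above the other 4, AT4G20830 and AT5G44390, beside 12.2% of all probe sets. AT5G44390 read 5.20, 5.93 and 4.61 with the compound and 4.80, 5.56 and 4.32 with DMSO. AT5G44380 read 8.86 to 9.22 with the compound and 8.83 to 9.35 with DMSO. AT2G34810 read 4.77 to 5.03 with the compound and 4.60 to 5.30 with DMSO. AT4G20820 and AT5G44410 had log2 differences of -0.27 (SE 0.19) and -0.22 (SE 0.23). On compound replicates 2 and 3 and DMSO replicate 3, AT5G44410 lay below the lower quartile, not separable from background.

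Few genes of the pathways in which family members act could be read. None of 12 listed genes of indole defence compound synthesis and its regulators was matched to a single-gene probe set in the annotation used, which left 8730 of the tested probe sets unnamed. Of 21 genes of monolignol synthesis and polymerisation, 2 were measured, and 0 were called by limma with or without the block (0 at an unadjusted p below 0.05 without the block). HCT, an acyltransferase gene of monolignol synthesis, read 9.19, 9.73 and 8.48 with the compound and 9.39, 10.0 and 8.64 with DMSO. CCR2, a cinnamoyl-CoA reductase gene, read 5.23, 5.91 and 5.30 with the compound and 5.52, 6.21 and 5.00 with DMSO. In both genes the replicate 2 arrays stood above the other 4, an order found in 12.2% of all probe sets.

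Of 14 markers of elicitor and pathogen response, 2 were measured and 0 were called with or without the block (0 at an unadjusted p below 0.05 without the block). The transcription factor gene WRKY53 read 4.38, 5.11 and 4.28 with the compound and 3.99, 4.59 and 4.08 with DMSO. Both of its replicate 2 arrays stood above the other 4. The defensin gene PDF1.2 lay between 4.09 and 4.31 with the compound and between 4.09 and 4.28 with DMSO. Its replicate 2 arrays did not stand out.

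The tissue label could be checked for the root alone. PYK10, an abundant beta-glucosidase gene of roots and the 1 measured of 7 root markers, stood at 12.6 to 12.8 with the compound and 12.6 to 13.0 with DMSO. None of 7 green-tissue markers was matched to a single-gene probe set in that annotation. Of 11 root hair markers 2 were measured, and both were called down in the fits with all 6 arrays. The share of all probe sets called in either direction was 0.343% without the block and 3.8% with it. EXPA7 ranged from 5.36 to 5.56 with the compound and from 6.94 to 7.98 with DMSO, and EXPA18 from 5.42 to 5.47 with the compound and from 6.87 to 7.67 with DMSO. In whole seedlings, fewer cells of a type and less RNA per cell cannot be told apart, and the part of such changes in the value of AT1G30760 was not tested.

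The single-gene probe sets with the most similar profile over the 6 arrays were found by Pearson correlation among 13436. For AT1G30760 these were PUCHI (r = 0.994), AT3G24240 (r = 0.983) and AT4G10460 (r = 0.983). PUCHI, a transcription factor gene of lateral root primordia, read 5.53, 5.29 and 5.15 with the compound and 4.24, 3.99 and 3.85 with DMSO. On DMSO replicate 3 PUCHI lay below the lower quartile. As in AT1G30760, replicate 1 was the highest and replicate 3 the lowest in both groups, an order that a search by correlation favours. For AT1G30760, with 96.0% of its variation between treatments, r reflects mainly the contrast that the choice of members used. AT3G24240, a receptor-like kinase gene, differed by 1.21 log2 units and AT4G10460 by 0.11. AT4G10460 lay between 3.11 and 3.26 on all arrays, below their lower quartiles.

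For AT1G30700, which had the widest spread within groups, the most similar profiles were those of AT2G47380 (r = 0.997), AT5G62460 (r = 0.994) and AT4G39520 (r = 0.994). AT2G47380 read 10.3, 10.7 and 10.4 with the compound and 10.3, 10.8 and 10.4 with DMSO, so its replicate 2 arrays were higher by much less than those of AT1G30700. With 6 arrays of which 2 stand apart, r reflects mainly those 2. It is given as a description of these arrays, which share their processing.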

How the data were processed

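The authors deposited 1 log2 value for each probe set and array. RMA was used, per the submitters' processing notes, with its version not given in the sources used here. RMA sets the single-probe values of all arrays to the same quantiles, so a shift common to all transcripts would not show. Array medians lay between 5.76 and 5.79, and lower quartiles between 3.95 and 4.06. The file held no detection calls, so a value below its array's lower quartile is described as not separable from background. Precision is limited by the number of arrays.

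Of 22810 probe sets, 64 control probe sets were left out. Names came from the platform annotation and the RefSeq gene table of TAIR10.1. Of the tested probe sets 13513 had 1 gene, of which 13436 matched a locus tag, 503 had several and 8730 were unnamed here. No coordinates or sequences are given. Cross-hybridisation between family members was not tested.

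Compound and DMSO arrays were compared over all 22746 probe sets with limma 3.58.1 in R 4.3.3 (lmFit, eBayes, treatment as the only term). The fit was also run on simulated data that held no replicate effect, so it was not checked for the replicate spread seen here. Calls are at an adjusted p below 0.05. Replicates are called biological in the titles. Deviations from the group means correlated at 0.727, 0.728 and 0.743 across probe sets between arrays of the same number and between -0.426 and -0.275 otherwise. Deviations cancel within each group, so positive values between arrays of the same number force negative values among the others. Because of the positive values, differences are also given within replicate number. The main fit does not use the number, and the fit with the number as a block is given beside it for many loci. Shares of variation are sums of squares for treatment and for replicate number over the total.

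The members, lists and naming rule were chosen with earlier results of these data known. The rule named every member with a single-gene probe set and, from each further list, the gene with the largest absolute difference and those called. It also named the 3 genes of most similar profile for the members with the largest difference and the widest spread. AT1G30750 and other list genes were picked after their values were seen. Alternatives were the block, leaving out each array or each replicate pair, centring arrays on their medians, a filter that kept means of 4 or more, and eBayes with trend and robust settings.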

Additional observations from a re-analysis of the deposited data

How the results depend on the processing

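Over all probe sets 78 were called, 865 with the replicate number as a block, and 516, 743 and 205 with the block and without replicate pair 1, 2 and 3. Without 1 array and without the block the count ran from 0 to 76. The lone call among the 8 loci, AT1G30760, was kept with the block, with the block and without any 1 pair, with centred arrays, with the filter at a mean of 4 and with trend and robust settings. In the fits without 1 array the count of called loci ran from 0 to 1. The log2 difference of AT1G30760 ran from 1.49 to 1.71 over all alternatives. Among the 14 other family loci 0 were called, 2 with the block, and 1, 1 and 0 with the block and without pair 1, 2 and 3. Without 1 array the log2 difference ran from -1.09 to 0.09 for AT1G26390, from -0.50 to 0.57 for AT1G26380, from -0.26 to 0.50 for AT1G26420 and from -0.52 to 0.61 for AT1G30700. Those fits break the replicate pairs. In blocked fits that left out 1 replicate pair the range was -0.998 to -0.04 for AT1G26390 and 0.09 to 0.19 for AT1G26420, with 1 sign, and -0.17 to 0.14 for AT1G26380 and -0.21 to 0.13 for AT1G30700, with both signs. The indole list had no matched gene and gave no value. No detection limit other than the lower quartile was at hand.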

Other observations

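The genes most similar in profile to AT1G26390, picked after its values were seen, also stood out on DMSO replicate 2, as a search by this profile would return. AT2G43390 read 3.59, 3.74 and 3.59 with the compound and 3.61, 4.62 and 3.67 with DMSO (r = 0.994 over 6 arrays). AT2G43670 read 4.32, 4.64 and 4.40 with the compound and 4.29, 5.83 and 4.40 with DMSO (r = 0.991). Apart from DMSO replicate 2, the values of AT2G43390 lay below the lower quartiles. AT1G31020 read 6.96, 7.05 and 6.98 with the compound and 7.01, 7.29 and 7.01 with DMSO (r = 0.985). The similarity of these genes rests on that 1 array.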
